A study of Mus musculus with 8 samples.

Results

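Stress-induced transcription factors were described in kidneys of mice given cisplatin, a platinum chemotherapy drug that injures the tubules. The genes were chosen by name alone: protein-coding genes of the Fos, Jun, Batf, ATF, CREB, MAF, NF-E2, C/EBP, KLF, EGR, NR4A and IER families, together with Myc, Bach1, Bach2, Nfil3, Bhlhe40 and Bhlhe41. This rule found 45 of the 35880 genes with usable counts, and 12286 of those 35880 genes were protein-coding. Another 34 genes of the same name pattern, among them Atf3, Atf4, Junb, Fosl1, Egr2, Klf4, Klf6, Myc and Nr4a1, stand in rows with 10 values for 8 named libraries and were not used here. No measured value entered the choice. Some names belong to genes that are not transcription factors, such as Ier3, a regulator of cell survival, and Ier3ip1, whose product works at the endoplasmic reticulum.

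The study compared the kidney transcriptome of control and cisplatin-treated mice to describe cisplatin-associated acute kidney injury. According to the methods the animals were male C57/BL6J mice, and the labels give the genotype as WT in both groups. Controls received saline and treated mice received cisplatin, both by intraperitoneal injection, and kidneys were taken 72 h later. Bulk RNA from 4 control kidneys (numbered 1, 2, 3 and 5) and 4 cisplatin kidneys (numbered 1, 3, 4 and 6) was sequenced, 8 libraries in all. Values below are given in that order of libraries, as TMM-normalized CPM, which are read counts scaled to a common library size, unless another scale is named.

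These factors belong to several families with related tasks. Fos, Jun, Batf and ATF proteins have a basic leucine zipper and bind DNA in pairs, and Fos-Jun pairs form the activator AP-1. MAF and NF-E2 proteins are also leucine zipper factors: NRF2, the product of Nfe2l2, pairs with a small MAF protein and turns on antioxidant genes. C/EBP factors act in inflammation and metabolism, KLF factors are zinc finger proteins that bind GC-rich DNA, and EGR and NR4A factors are, like Fos and Jun, products of immediate-early genes, which are transcribed within minutes of a stimulus without new protein synthesis. In the kidney these genes are known to respond to tubular injury.

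Promoter sequences are shown for Nfe2l2 and Jun, since these stretches hold letters that the same families are known to bind. They are the called members with the highest mean CPM in the MAF and NF-E2 group and the Jun group. The windows of Fosl2 and Creb3l3, the corresponding Fos and CREB members, lay wholly inside the gene as the table bounds it, and that of Ier3 partly, so they are not shown. Each is the 250 bases before the annotated start in RefSeq (GRCm38.p6), 5′ to 3′ on the gene's strand: Nfe2l2 at chr2:75704664-75704913 (minus) and Jun at chr4:95052223-95052472 (minus). Capitals mark a match, on either strand, to a searched motif.
Nfe2l2: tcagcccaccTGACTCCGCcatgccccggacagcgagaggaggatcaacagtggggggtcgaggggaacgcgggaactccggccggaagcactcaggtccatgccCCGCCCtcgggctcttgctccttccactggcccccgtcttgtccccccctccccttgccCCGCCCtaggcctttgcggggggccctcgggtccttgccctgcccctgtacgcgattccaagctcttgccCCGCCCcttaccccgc
Jun: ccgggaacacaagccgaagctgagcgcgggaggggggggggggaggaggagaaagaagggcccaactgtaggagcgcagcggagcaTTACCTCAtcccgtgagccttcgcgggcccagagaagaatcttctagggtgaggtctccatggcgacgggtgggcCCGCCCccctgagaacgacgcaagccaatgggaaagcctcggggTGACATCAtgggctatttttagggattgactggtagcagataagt

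Counting back from the start, the Jun promoter held TGACATCA at -45 to -38 and TTACCTCA at -164 to -157. Both are AP-1-like sequences known from the Jun promoter, and they were added to the search after its sequence had been read. The Nfe2l2 promoter held TGACNNNGC, the core of the antioxidant response element bound by NRF2, at -240 to -232. It also held GGGCGG, the GC box bound by Sp and KLF factors, at -145 to -140, -86 to -81 and -16 to -11. Jun held a GC box at -89 to -84. Both stretches overlap another gene on the opposite strand in GENCODE M21, E030042O20Rik beside Nfe2l2 and Junos beside Jun. GC boxes were found in 66.7% of the 45 promoter windows of members and in 32.7% of all 32851 windows of this length. TGACNNNGC was in 22.2% of member windows and 10.2% of all windows. The AP-1 site TGACTCA was in 2.22% of member windows and 4.46% of all, and the CRE TGACGTCA in 2.22% and 1.55%. TGACATCA was in 4.44% and 2.93%, TTACCTCA in 2.22% and 0.728%, and the CArG box, bound by SRF, in 2.22% and 1.47%. Among members TGACATCA was found for Jun and Maff and TTACCTCA for Jun alone. Since both were taken from the Jun window, their member shares cannot be compared with those of all windows. A TGACTCA followed by GC also counts as TGACNNNGC. Windows were found for 35 of the 45 members, and some members have several. A match is a description of letters and not a binding site.

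Some libraries stood apart. Total counts over the usable rows ran from 10953338 to 16701599 per library, so that 3 counts, taken as the floor, stood for 0.180 to 0.274 CPM before TMM normalization. The first principal component of all genes held 72.6% of the variance and the second 15.4%. The second separated control 5, cisplatin 4 and cisplatin 6 from the other 5 libraries. Cisplatin 1 had 2 and 3 counts of the Y-linked genes Kdm5d and Eif2s3y and cisplatin 3 had 0 of both, whereas the other 6 libraries had 274 to 576 and 541 to 1333. This goes against the stated sex for those libraries. Calls that changed when both were left out are given with and without them. Control 1, 2 and 3 had Y-linked counts, so fits of them against cisplatin 1 and 3 cannot tell treatment from this difference. Proximal tubule markers, such as Lrp2 and Slc34a1, summed to between 66598 and 81699.9 CPM in controls. In cisplatin 1, 3, 4 and 6 they summed to 1866, 1373, 9344 and 15054 CPM. Kap had the highest mean of these markers in both groups, at 32283 ± 2193 CPM in controls and 4504 ± 5144 CPM after cisplatin. The lowest sums fell in the libraries almost without Y-linked counts, and the part of sex in them was not tested. In bulk RNA, fewer cells of a type and less RNA per cell cannot be told apart.

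The data showed more members up-regulated than down-regulated. Of the 45 members, 43 passed the filter on low counts, and 24 of these were called higher after cisplatin and 0 lower by edgeR's quasi-likelihood test (adjusted p under 0.05 and log2 fold change, log2 FC, of at least 1 in size). DESeq2 called 24 higher and 1 lower, Klf1, against 19.4% and 16.7% of all genes. At an adjusted p under 0.05 without the fold limit, 28 members were higher and 1, Klf9, was lower. Over all 9141 genes tested, 19.2% were called higher and 15.7% lower, and 49.1% passed the adjusted p alone, 26.4% higher and 22.6% lower. The median log2 FC was 1.17 over the members tested and 0.08 over all genes tested. With libraries scaled by their total counts alone the medians were 1.74 and 0.64. That scaling called 32 members higher and 0 lower, against 34.7% and 8.78% of all genes. The 2 members not tested were Egr4, at 0 counts in every control and 1, 0, 1 and 2 counts in the cisplatin libraries, and Klf17, at 0 counts in every library. Of the 43 tested, 35 exceeded the filter's limit of 0.684 CPM in all 4 controls and 8 in fewer. Fosb, Nr4a2 and Egr3 did so in 3 controls, Klf8 and Batf3 in 2, Batf in 1, and Creb3l3 and Nfe2 in 0. All 8 passed the filter only with the cisplatin libraries counted. Of them, Fosb, Nr4a2, Klf8, Creb3l3 and Nfe2 are among the 24 called higher.

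**Figure D1:**
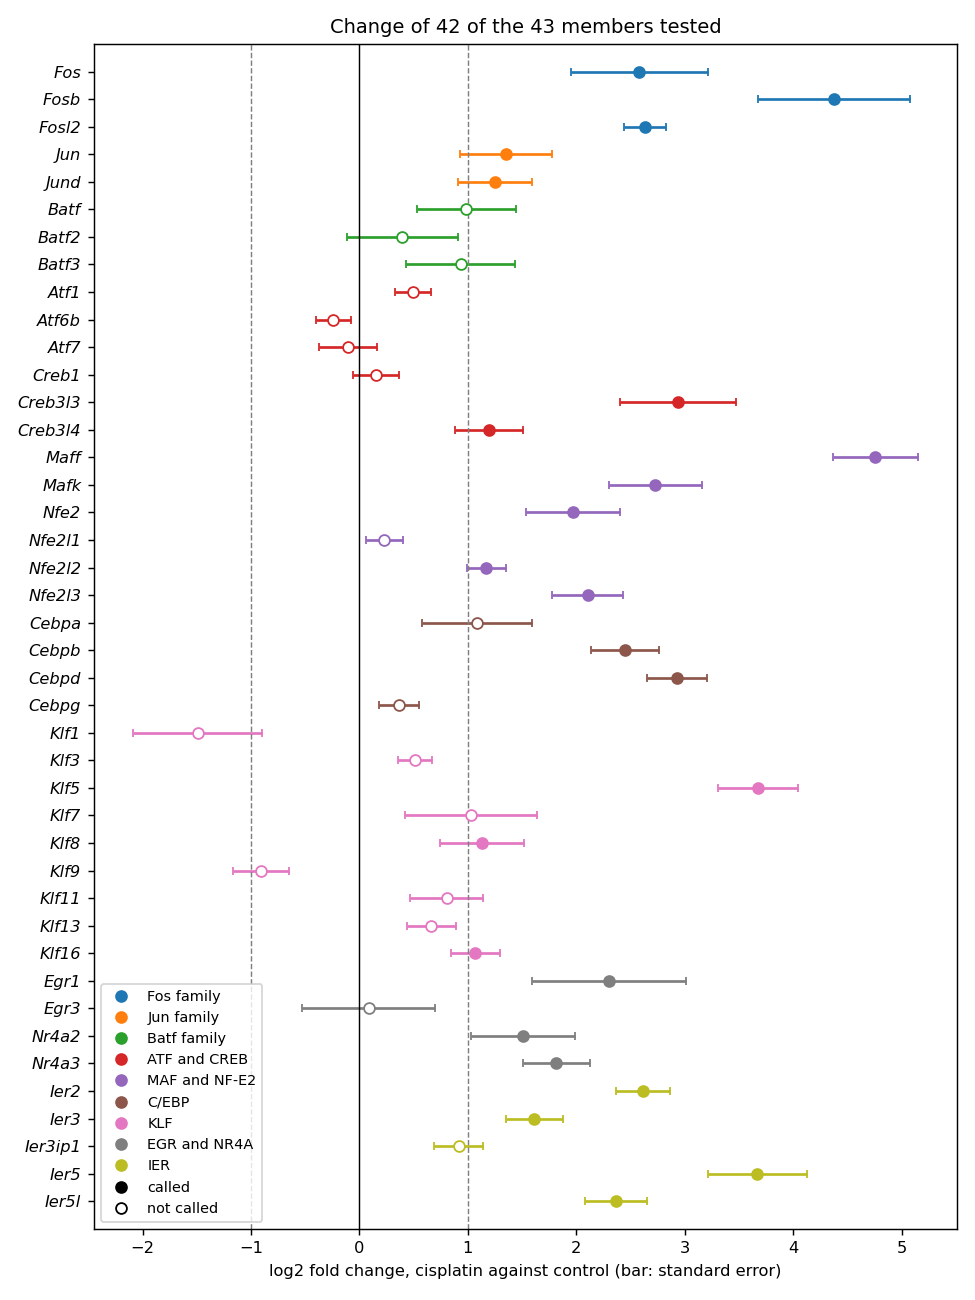
Log2 fold change of cisplatin against control for 42 of the 43 members tested, by family, with bars for the standard error. Filled points are the 24 members called higher, dashed lines mark a log2 FC of 1 in either direction, and Maff at 4.76 and Fosb at 4.38 lie farthest to the right.

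Groups did not overlap for 25 members, and in all 25 every cisplatin library lay above every control. Over all genes tested the cisplatin libraries lay wholly above the controls for 23.7% and wholly below for 22.5%. Of the 24 called members, 22 were among these 25, and Jund and Klf8 were the exceptions. Thus 24 of the 45 members were called higher in these kidneys, 19 of the tested members were not called, and 2 were not tested. A call describes the level in bulk RNA at 72 h, and induction by stress within cells was not tested.

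**Figure D2:**
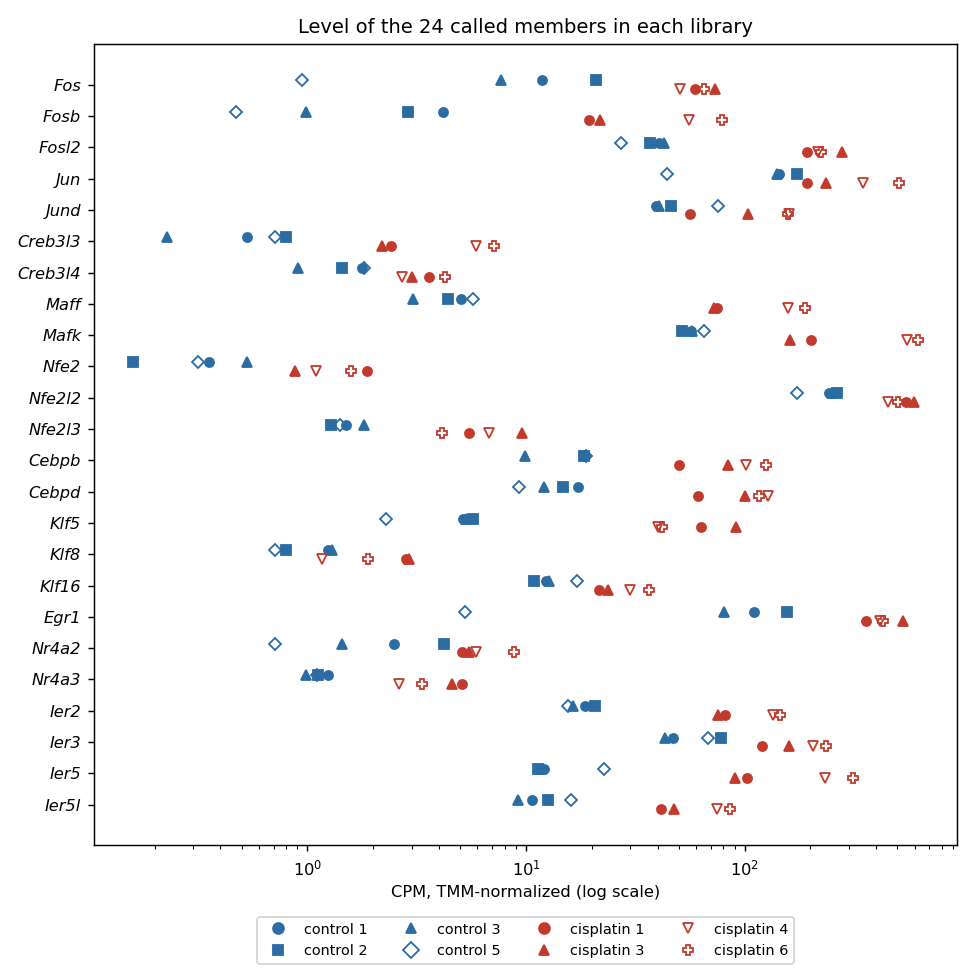
TMM-normalized CPM, on a log axis, of the 24 called members in each of the 8 libraries. Blue symbols are controls, red symbols are cisplatin libraries, and open symbols are control 5, cisplatin 4 and cisplatin 6; the blue and red symbols overlap for Jund and Klf8 but not for the other 22.

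The 3 Fos family genes, which supply the Fos subunit of AP-1, all rose. Fos (ENSMUSG00000021250, chromosome 12 from 85473890 to 85477273, plus strand) was at 11.9, 20.9, 7.66 and 0.944 CPM in the controls and at 59.0, 73.1, 50.5 and 64.9 CPM in the cisplatin libraries. Control 5 was the lowest library by far, and the lowest cisplatin library exceeded the highest control. The mean went from 10.3 ± 8.35 to 61.9 ± 9.54 CPM (SD, n = 4 each), a log2 FC of 2.58 (SE 0.63, adjusted p = 0.00769). Without control 5 the log2 FC was 2.19. Fosb (chromosome 7 from 19302696 to 19310051, minus strand), another partner of Jun proteins, was at 4.16, 2.87, 0.986 and 0.472 CPM in controls and 19.4, 21.8, 55.8 and 78.8 CPM after cisplatin. Cisplatin 4 and 6 were well above cisplatin 1 and 3, yet all exceeded the controls, and the log2 FC was 4.38 (SE 0.70, adjusted p = 0.000722). Fosl2 (chromosome 5 from 32135801 to 32157842, plus strand), which encodes Fra-2, had the smallest standard error of the family. It was at 40.4, 36.9, 42.8 and 27.3 CPM and 193, 279, 218 and 224 CPM, with a log2 FC of 2.63 (SE 0.19, adjusted p = 8.32e-06).

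Both Jun family genes measured here were called higher, with smaller changes. Jun (ENSMUSG00000052684, chromosome 4 from 95049034 to 95052222, minus strand), whose promoter is printed above, was at 144, 173, 141 and 44.0 CPM in controls and 193, 235, 348 and 506 CPM after cisplatin. Control 5 was lowest and cisplatin 6 highest, and the groups did not overlap. The mean went from 125 ± 56.3 to 320.5 ± 140.0 CPM, a log2 FC of 1.35 (SE 0.43, adjusted p = 0.0242). Within control 1, 2 and 3 and cisplatin 1 and 3 the log2 FC of Jun was 0.43 (adjusted p = 0.0354), below the fold limit, and without cisplatin 1 and 3 it was 1.76. The call was also lost without control 3 (1.39, adjusted p = 0.0509) and without cisplatin 6 (1.04, adjusted p = 0.0687). Jund, the Jun protein that is present in most resting cells, was at 39.5, 46.1, 40.6 and 75.2 CPM and 56.4, 104, 160.5 and 158 CPM. Cisplatin 1 lay below control 5, so the groups overlapped, and the log2 FC was 1.25 (SE 0.34, adjusted p = 0.0130). In the 5 libraries without control 5, cisplatin 4 and cisplatin 6 it was 0.88. Junos, a gene on the opposite strand that overlaps Jun, had 15, 16, 12 and 22 counts in controls and 130, 152, 73 and 72 after cisplatin (log2 FC 2.27, adjusted p = 0.000254). Whether counting used strand is not stated in the sources used here, so reads of Jun and Junos may not be fully separated.

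None of the 3 Batf genes, AP-1 factors best known from immune cells, passed the test. Batf went from 0.582 ± 0.394 to 1.16 ± 0.177 CPM (log2 FC 0.99, adjusted p = 0.101) and Batf2 from 2.49 ± 0.876 to 3.25 ± 1.87 CPM (0.39, adjusted p = 0.552). Batf was called without control 2 (1.50, adjusted p = 0.0280). Batf3 was at 0.797, 0.877, 0.607 and 2.75 CPM in controls and 3.37, 1.54, 2.12 and 2.62 CPM after cisplatin, with control 5 inside the cisplatin range. Its log2 FC was 0.93 (adjusted p = 0.148), and without control 5 it was 1.65 and was called.

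Among the 6 ATF and CREB genes, 2 were called higher, and both are members of the CREB3 family, which is anchored in the endoplasmic reticulum membrane and released by cleavage. Creb3l3, known from liver lipid metabolism, was at 0.531, 0.798, 0.228 and 0.708 CPM and 2.41, 2.20, 5.93 and 7.14 CPM (log2 FC 2.94, SE 0.54, adjusted p = 0.00157). Its control values lie near the floor. Creb3l4 was at 1.77, 1.44, 0.910 and 1.81 CPM and 3.59, 3.02, 2.71 and 4.28 CPM (log2 FC 1.20, SE 0.32, adjusted p = 0.0111). Every cisplatin library exceeded every control for both. Atf1, a close relative of Creb1, went from 52.3 ± 8.36 to 73.8 ± 9.59 CPM (log2 FC 0.49, adjusted p = 0.0299), past the adjusted p but below the fold limit. Creb1, Atf7 and Atf6b, a membrane-bound factor of the unfolded protein response, did not pass the test, with log2 FCs of 0.15, -0.10 and -0.24 (adjusted p = 0.583, 0.775 and 0.237). The sign for Atf6b and for Atf7 was positive under total-count scaling, at 0.33 and 0.48.

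In the MAF and NF-E2 group 5 of 7 genes rose, including Maff and Mafk, 2 small MAF genes. The small MAF gene Mafg stands in the rows not used here. Maff (ENSMUSG00000042622, chromosome 15 from 79346621 to 79359076, plus strand) had the highest log2 FC of all members. It was at 5.05, 4.39, 3.03 and 5.74 CPM in controls and 74.7, 72.5, 157 and 189 CPM after cisplatin, 27.1-fold higher (log2 FC 4.76, SE 0.40, adjusted p = 1.72e-05). Mafk (chromosome 5 from 139791513 to 139802653, plus strand) was at 57.1, 51.5, 57.7 and 65.5 CPM and 202, 162, 551 and 623 CPM (log2 FC 2.73, SE 0.43, adjusted p = 0.000626). For both, controls were close together and cisplatin 4 and 6 lay above cisplatin 1 and 3, by 2.35-fold for Maff and 3.22-fold for Mafk in the mean. Nfe2l2 (ENSMUSG00000015839, chromosome 2 from 75675513 to 75704641, minus strand), which encodes NRF2 and whose promoter is printed above, was at 244, 264, 251 and 174 CPM and 549, 598, 451 and 501 CPM. The mean went from 233 ± 40.6 to 525 ± 63.0 CPM (log2 FC 1.17, SE 0.18, adjusted p = 0.000579), and control 5 was again the lowest library.

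Nfe2l3, a relative of NRF2, went from 1.50 ± 0.231 to 6.49 ± 2.33 CPM (log2 FC 2.10, SE 0.33, adjusted p = 0.000613). Nfe2, best known from megakaryocytes and red cell precursors, went from 0.340 ± 0.153 to 1.36 ± 0.449 CPM (log2 FC 1.97, SE 0.44, adjusted p = 0.00451), with controls near the floor. Nfe2l1, a regulator of proteasome genes, was among the highest members in both groups, at 335 ± 34.0 and 392 ± 70.3 CPM, and did not pass the test (log2 FC 0.23, adjusted p = 0.298).

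Of the 4 C/EBP genes, the inflammatory pair rose. Cebpb was at 18.6, 18.5, 9.93 and 18.9 CPM in controls and 50.0, 83.8, 101 and 125 CPM after cisplatin. The mean went from 16.5 ± 4.36 to 89.9 ± 31.5 CPM (log2 FC 2.45, SE 0.31, adjusted p = 0.000186). Cebpd, an acute-phase factor, was at 17.4, 14.8, 12.1 and 9.28 CPM and 61.4, 100.2, 129 and 117 CPM (log2 FC 2.93, SE 0.28, adjusted p = 3.68e-05). Cisplatin 1 was the lowest treated library for both and still exceeded every control. Cebpa, a factor of differentiated metabolic cells, was at 37.1, 26.2, 30.6 and 66.9 CPM and 41.5, 29.8, 129 and 141 CPM. Cisplatin 1 and 3 lay within the control range and cisplatin 4 and 6 above it. Its log2 FC was 1.08 (SE 0.51, adjusted p = 0.105), and without cisplatin 1 and 3 it was 1.76 (adjusted p = 0.00255). Without cisplatin 3 alone it was 1.37 (adjusted p = 0.0323). Cebpg, which pairs with other leucine zipper factors, went from 69.8 ± 5.11 to 89.7 ± 21.3 CPM and did not pass the test (log2 FC 0.36, adjusted p = 0.128).

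The KLF genes were mixed: of 10 members 9 were tested, and 3 were called higher. Klf5 (ENSMUSG00000005148, chromosome 14 from 99298691 to 99315036, plus strand), a factor of proliferating epithelia and of the collecting duct, changed most. It was at 5.14, 5.74, 5.31 and 2.28 CPM in controls and 63.1, 90.9, 40.3 and 41.8 CPM after cisplatin (log2 FC 3.68, SE 0.37, adjusted p = 5.06e-05). The collecting duct water channel Aqp2 was also higher (log2 FC 1.54, adjusted p = 0.0109), though its groups overlapped. Aqp3, another water channel of the collecting duct, was not called (-0.12, adjusted p = 0.560). Of the 6 distal tubule and collecting duct markers, 3 were called lower and Aqp2 alone higher. Their part in the result for Klf5 was not tested. Klf16 went from 13.3 ± 2.68 to 27.9 ± 6.69 CPM (log2 FC 1.07, SE 0.22, adjusted p = 0.00345), and fell short of the fold limit without control 2 (0.98) or cisplatin 6 (0.92) and in control 1, 2 and 3 against cisplatin 1 and 3 (0.86). Klf8 was at 1.24, 0.798, 1.29 and 0.708 CPM and 2.82, 2.91, 1.17 and 1.90 CPM. Cisplatin 4 lay among the controls, and its call (log2 FC 1.13, adjusted p = 0.0342) was lost without control 1, 2, 3 or 5 or cisplatin 1 or 3, with log2 FCs of 0.94 to 1.26 (adjusted p = 0.0525 to 0.0969). Without cisplatin 1 and 3 together it was 0.61 (adjusted p = 0.257).

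Klf9, a target of glucocorticoid and thyroid hormone receptors, was the member with the highest level per length in controls and the only member past the adjusted p in the lower direction. It was at 323, 308, 301 and 200.1 CPM in controls and 182, 206, 113 and 103 CPM after cisplatin, so that cisplatin 3 just exceeded control 5. The mean went from 283 ± 56.0 to 151 ± 50.9 CPM (log2 FC -0.91, SE 0.26, adjusted p = 0.0162), short of the fold limit. It passed that limit without control 5 (-1.05), cisplatin 1 (-1.02) or cisplatin 3 (-1.12), and without cisplatin 1 and 3 together (-1.39, adjusted p = 0.00163). Klf1, the red cell factor, was at 2.48, 4.79, 3.26 and 5.66 CPM and 0.637, 0.440, 3.37 and 1.43 CPM (log2 FC -1.49, SE 0.60, adjusted p = 0.0622), not called in edgeR. Without cisplatin 4 it was -2.32 (adjusted p = 0.00537), and without cisplatin 1 and 3 it was -0.73 (adjusted p = 0.216). Within control 1, 2 and 3 and cisplatin 1 and 3 it was -2.74 (adjusted p = 0.000975). Klf7 was at 12.1, 14.0, 19.4 and 6.68 CPM in controls and 43.7, 46.5, 7.91 and 8.01 CPM after cisplatin. Cisplatin 1 and 3 lay above every control and cisplatin 4 and 6 near the lowest control, and the log2 FC over all libraries was 1.03 (adjusted p = 0.189). It was 1.51 (adjusted p = 0.000311) within control 1, 2 and 3 and cisplatin 1 and 3, and -0.71 (adjusted p = 0.162) without cisplatin 1 and 3.

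Klf3 went from 112 ± 17.1 to 161 ± 16.4 CPM and Klf13 from 97.2 ± 16.6 to 154 ± 44.4 CPM. Both passed the adjusted p below the fold limit (log2 FC 0.52 and 0.66, adjusted p = 0.0210 and 0.0342), and the groups of Klf3 did not overlap. Without cisplatin 1 and 3 neither passed it, at 0.47 for Klf3 (adjusted p = 0.0532) and 0.27 for Klf13 (adjusted p = 0.272). Klf11 was at 39.3, 36.3, 39.1 and 11.4 CPM and 59.9, 62.0, 46.3 and 51.8 CPM. Its control 5 stood far below the other controls. The groups did not overlap, but the test was not passed (log2 FC 0.80, adjusted p = 0.0730). Without control 5 it was 0.51 (adjusted p = 0.0238), and without cisplatin 1 and 3 it was 0.64 (adjusted p = 0.239). With a covariate for the libraries apart on the second principal component Klf11 was called higher (1.13, adjusted p = 0.00366).

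Among the EGR and NR4A genes, 3 of the 4 tested were called higher. Egr1, a zinc finger factor induced by growth signals, was at 111, 156, 80.7 and 5.27 CPM in controls and 357, 530.4, 417 and 430.4 CPM after cisplatin. Control 5 was 21.05-fold below the median of the other 3 controls. The mean went from 88.2 ± 63.3 to 434 ± 71.8 CPM (log2 FC 2.30, SE 0.71, adjusted p = 0.0224). Without control 5 the log2 FC was 1.89 (adjusted p = 0.000641), and without cisplatin 1 and 3 it was 2.26 (adjusted p = 0.0571), no longer called. It was not called without control 3 either (2.24, adjusted p = 0.0601). Nr4a2 went from 2.21 ± 1.53 to 6.33 ± 1.68 CPM (log2 FC 1.51, SE 0.48, adjusted p = 0.0255). Nr4a3 went from 1.11 ± 0.104 to 3.91 ± 1.12 CPM (log2 FC 1.81, SE 0.31, adjusted p = 0.00105). Both are orphan nuclear receptors, and for both every cisplatin library exceeded every control. The call for Nr4a2 was lost without control 1 (1.55, adjusted p = 0.0563), control 3 (1.33, adjusted p = 0.0766) or cisplatin 6 (1.32, adjusted p = 0.0637). In control 1, 2 and 3 against cisplatin 1 and 3 its log2 FC was 0.90 (adjusted p = 0.0937). Egr3 was at 3.45, 1.28, 1.74 and 0.157 CPM and 1.77, 1.98, 1.32 and 1.90 CPM, with cisplatin libraries inside the control range (log2 FC 0.08, adjusted p = 0.923).

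All 5 IER genes, named as immediate early response genes, had groups that did not overlap, and 4 were called higher. Ier5 (chromosome 1 from 155096361 to 155099636, minus strand), a cofactor of the heat shock factor HSF1, was at 12.1, 11.3, 11.7 and 22.7 CPM in controls and 103, 90.7, 232 and 312 CPM after cisplatin (log2 FC 3.67, SE 0.45, adjusted p = 0.000161). Ier5l, its paralog, went from 12.1 ± 2.97 to 62.5 ± 21.4 CPM (log2 FC 2.36, SE 0.28, adjusted p = 0.000140). Ier2 was at 18.6, 20.6, 16.5 and 15.6 CPM and 81.8, 75.7, 134 and 145 CPM (log2 FC 2.62, SE 0.25, adjusted p = 3.43e-05). The controls of Ier2 were close together, control 5 included. Ier3 (chromosome 17 from 35821684 to 35822923, plus strand) was at 47.1, 77.9, 43.4 and 67.7 CPM and 120.4, 159.6, 206 and 237 CPM (log2 FC 1.61, SE 0.26, adjusted p = 0.000802). Ier3ip1 went from 17.5 ± 1.78 to 33.1 ± 9.27 CPM (log2 FC 0.91, adjusted p = 0.00790), below the fold limit. It was called without cisplatin 3 (1.07) and without cisplatin 1 and 3 together (1.18, adjusted p = 0.000530).

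**Figure D3:**
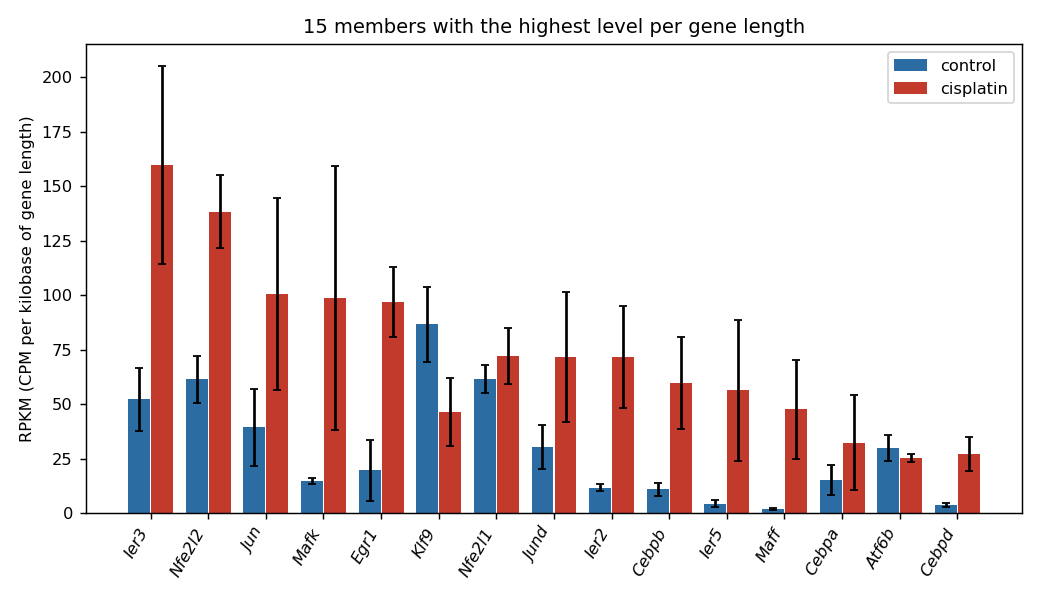
Mean level per gene length, in RPKM, of the 15 members with the highest such level in either group, with bars for the SD over 4 libraries. Klf9 was highest in the controls at 86.7 ± 17.2 and Ier3 highest after cisplatin at 159.7 ± 45.2.

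The order of the members changed between the groups. Levels of different genes were compared as RPKM, which is CPM divided by the gene length of the table in kilobases. In controls Klf9 was highest at 86.7 ± 17.2 (SD, n = 4), followed by Nfe2l1 at 61.5 ± 6.26, Nfe2l2 at 61.4 ± 10.7, Ier3 at 52.2 ± 14.6 and Jun at 39.4 ± 17.7. Of these, Nfe2l1, Nfe2l2 and Ier3 differed by less than the larger SD of each pair. After cisplatin Ier3 was highest at 159.7 ± 45.2, followed by Nfe2l2 at 138 ± 16.6, Jun at 100.5 ± 43.9, Mafk at 98.6 ± 60.5 and Egr1 at 96.7 ± 16.0. Ier3 and Nfe2l2 differed by less than the SD of Ier3, as did Jun, Mafk and Egr1 by less than that of Jun. Klf9 was at 46.3 ± 15.6 in that group.

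**Figure D4:**
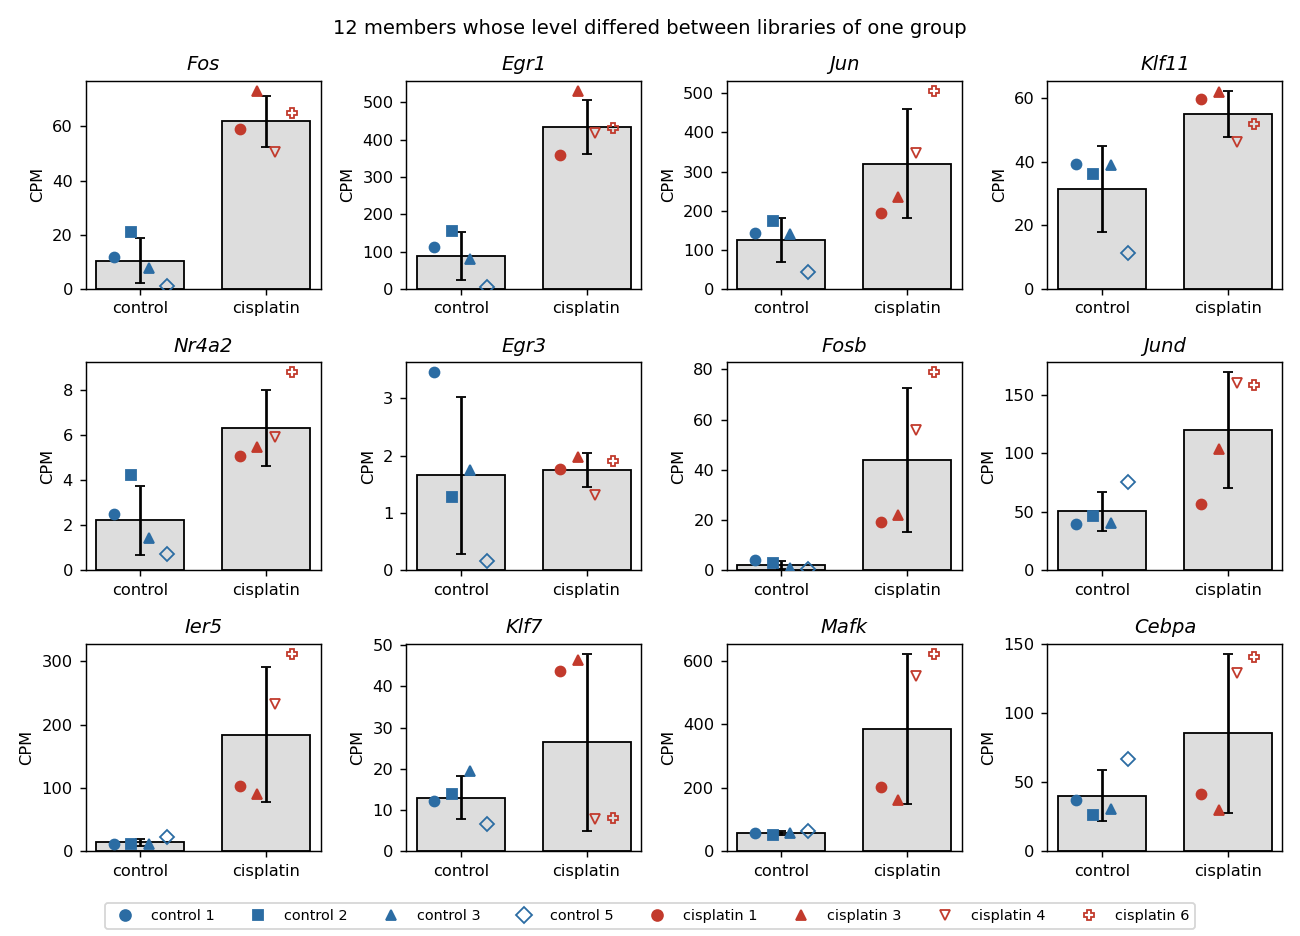
CPM of 12 members in each library (points), with the group mean (bar) and SD (error bar, n = 4); the members were picked after their values were seen, for spread within a group. Control 5 (open diamond) is lowest for Fos, Egr1, Jun, Klf11, Nr4a2, Egr3, Fosb and Klf7 and highest for Jund, Ier5, Mafk and Cebpa.

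Within the controls, control 5 was the lowest control for 23 of the 43 members (53.5%, against 34.9% of all genes tested) and the highest for 14 (32.6%, against 39.9%). The median of the other controls exceeded it 21.05-fold for Egr1, 12.6-fold for Fos, 11.1-fold for Egr3, 6.09-fold for Fosb, 3.50-fold for Nr4a2, 3.43-fold for Klf11 and 3.27-fold for Jun. Within the cisplatin group, libraries 4 and 6 were both above 1 and 3 for 18 members (41.9%, against 36.7% of all genes) and both below for 13 (30.2%, against 36.2%). By mean, libraries 4 and 6 were above libraries 1 and 3 by 3.79-fold for Cebpa, 3.27-fold for Fosb, 3.22-fold for Mafk, 2.81-fold for Ier5 and 2.35-fold for Maff. Klf7 went the other way, 5.66-fold.

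Of the regulators of these factors tested, 11 were called and 11 were not, against 34.9% called in either direction over all genes tested. The list held 39 kinases, phosphatases and other immediate-early genes that act on AP-1 or are induced with it, 23 of them with usable counts and 22 tested. Of these 22, 9 were called higher and 2 lower, with a median log2 FC of 0.70. The called genes with the largest change were Btg2, an antiproliferative p53 target (from 57.7 ± 21.5 to 689.6 ± 95.1 CPM, log2 FC 3.58, adjusted p = 1.75e-05), Dusp8, a phosphatase that turns off JNK and p38 (2.83, adjusted p = 1.86e-05), and Arc (2.67, adjusted p = 2.30e-05). In the other direction were the p38 kinase Mapk14 (-1.09, adjusted p = 0.000275) and Map2k6, which activates p38 (-2.25, adjusted p = 6.18e-05).

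Most of the AP-1 targets tested were called higher. Of 29 listed genes 16 had usable counts and were tested, 12 were called higher and 0 lower, with a median log2 FC of 3.75. For all genes tested 19.2% were called higher and 15.7% lower, with a median of 0.08. Timp1, an inhibitor of matrix metalloproteinases, went from 0.301 ± 0.278 to 76.6 ± 29.2 CPM (log2 FC 7.95, adjusted p = 4.47e-06). Mmp10, a matrix metalloproteinase, had 0 counts in every control and 6.21 ± 1.53 CPM after cisplatin, at least 23.4-fold above the level of 3 counts in a library. Areg, an EGF receptor ligand, had 3 counts in the 4 controls together and 4.54 ± 0.491 CPM after cisplatin (adjusted p = 3.60e-05). Plau, Mmp9, Mmp12 and Il1b were not called. Fibroblast markers moved in the same direction: all 3 tested collagen genes were called higher, and their summed CPM was 70.4 to 252 in controls and 341 to 1569 after cisplatin. The summed neutrophil markers went from 4.07 to 6.21 CPM in controls to 14.1 to 27.5 CPM after cisplatin, with Mpo at 0 in every library. Macrophage markers summed to 53.5 to 125 CPM and 122 to 164 CPM, and of the 3 tested Cd14 alone was called higher. Among other markers, 2 of 3 of the thick ascending limb were called lower, 0 of 3 endothelial and 0 of 4 podocyte markers were called, and of 4 T and B cell markers 1 was called higher and 1 lower. The part of these cells in the results for the members and their targets was not tested.

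Targets of ATF4 in the integrated stress response were mixed. Of 38 listed genes 24 were tested, 10 were called higher and 3 lower, with a median log2 FC of 0.72, and 1 of the 10 is the member Cebpb. Shares over all genes tested were 19.2% higher and 15.7% lower. Slc7a11, the cystine transporter (3.57, adjusted p = 0.000607), Trib3, a pseudokinase (3.30, adjusted p = 0.000149), and Eif4ebp1, a translation repressor (2.86, adjusted p = 6.31e-06), had the largest log2 FCs upward. Shmt2, a mitochondrial enzyme of serine metabolism (-2.98, adjusted p = 4.25e-05), Cth, an enzyme of cysteine synthesis (-2.09, adjusted p = 0.00214), and Herpud1, of endoplasmic reticulum quality control (-1.59, adjusted p = 0.000229), were called lower.

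Targets of NRF2 rose in part beside Nfe2l2. Of 37 listed genes 24 were tested, 11 were called higher and 2 lower, with a median log2 FC of 0.86. Here too the shares over all genes tested were 19.2% higher and 15.7% lower. Gsta1, a glutathione transferase, went from 0.353 ± 0.227 to 63.3 ± 69.4 CPM (log2 FC 7.42, adjusted p = 0.00181) and Cbr3, a carbonyl reductase, from 1.33 ± 0.342 to 36.5 ± 22.3 CPM (4.77, adjusted p = 6.27e-05). Slc7a11 stands in this list too. Srxn1, Txnrd1 and Gclc were also called higher, and Gclm, Gstm1, Gstp1 and Prdx1 were not called. Me1, malic enzyme (-2.73, adjusted p = 2.54e-05), and Abcc2, an efflux pump (-1.49, adjusted p = 0.00879), were called lower. All 12 proximal tubule markers were called lower in the same comparison, with a median log2 FC of -4.17, and their part in the lower calls was not tested.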

How the data were processed

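Kidney poly(A) RNA of 4 control and 4 cisplatin-treated mice was sequenced. The authors processed reads with fastp and aligned them with HISAT2 to GRCm38 (versions not given in the sources used here), and deposited raw counts of reads per gene. The counting tool, annotation release and strand setting are not given in the sources used here, and the library kit in the labels differs from that in the methods. The table has 53715 rows. The 17835 rows with 10 values, which include 2 columns named by no sample, were not used. Total counts over the other 35880 rows were 10953338 to 16701599 per library. The floor of 3 counts covers counting error only, since no molecular identifiers are mentioned. The SDs and standard errors include the spread between libraries.

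Groups came from the treatment label. The samples are separate kidneys by the labels, though the animals are not named, so p-values measure the spread between these libraries. Members were selected by gene name and protein-coding type. The members, gene lists and alternatives were chosen with earlier results of these data known, and the lists were written by hand. Of the 45 members 43 had the same coordinates in GENCODE M21. There 15 overlap another gene, 8 of them on the same strand (Atf7, Batf2, Cebpg, Ier3ip1, Klf3, Klf7, Klf9 and Nfe2l2), so their counts are uncertain. Cebpa, Cebpb, Cebpd, Jun, Jund, Klf13 and Mafk overlap a gene on the opposite strand only. Their counts are uncertain too if counting ignored strand.

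The test was run with edgeR 4.0.16 in R 4.3.3. Genes were filtered with filterByExpr, scaled by TMM and tested by quasi-likelihood, and p-values were adjusted over the 9141 genes tested (Benjamini-Hochberg). A call required an adjusted p below 0.05 together with a log2 FC of 1 or more in size. The standard error is the absolute log2 FC divided by the square root of F. Levels per length used the gene length in the table. Every called member was named with its log2 FC. In each pathway list the 3 called genes per direction with the largest log2 FC were named, at a mean of at least 1 CPM. Other list genes and markers were named after their values were seen. Alternatives were DESeq2 1.42.0, 3 other normalizations, 2 other filters, a test against a log2 FC of 1, the replicate number as a block, a covariate for the libraries that stood apart on the second principal component, fits without those libraries or without cisplatin 1 and 3, and each library left out in turn. The procedure was tested on simulated data. Of 195 tested genes set to a log2 FC of 1, 0% passed the adjusted p and 0% were called. Of 197 tested genes set to a log2 FC of 2, 85.3% were called, and 8 unchanged genes were called as well. Changed genes were few in both runs, 195 of 9012 and 197 of 8991 tested, whereas in the data 49.1% passed the adjusted p. The adjustment was therefore stricter in the simulation. In the data genes near a log2 FC of 1 passed, such as Klf16 (1.07, adjusted p = 0.00345). Figures were drawn with matplotlib 3.10.9 in Python 3.11.15. The values of 1 member are not reported here.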

Additional observations from a re-analysis of the deposited data

Results flagged for a closer look

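In 5 of 90 groups of 4 libraries, 1 library stood apart from the other 3 by Dixon's criterion at the 95% level. Chance flags about 1 in 20 groups. Control 5 was the library in 4 of the 5. It was the highest control for Batf3, at 2.75 CPM against 0.607 to 0.877 CPM in the other controls. It was also the highest control for Atf6b, at 107 CPM against 71.6 to 77.0 CPM, and for Ier5, at 22.7 CPM against 11.3 to 12.1 CPM. For Klf11 control 5 was the lowest control, at 11.4 CPM against 36.3 to 39.3 CPM. For Cebpb control 3 was the lowest control, at 9.93 CPM against 18.5 to 18.9 CPM. The calls for Ier5 and Cebpb were the same without these libraries, and Batf3 was called higher without control 5.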

How the results depend on the processing

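The number of members called higher, 24, was 16 to 32 over the alternatives: 32 under total-count scaling (the 24 and 8 others), 16 in a test against a log2 FC of 1, 19 with at least 10 counts in every library and 20 to 25 with 1 library left out. The number called lower, 0, was 1 under DESeq2, no filter, the replicate block, the covariate and the fit of control 1, 2 and 3 against cisplatin 1 and 3 (Klf1 in each), 1 without cisplatin 1 and 3 (Klf9), and 0 to 1 with 1 library left out. Over all genes 1754 were higher and 1434 lower. Total-count scaling gave 3174 and 803, the test against a log2 FC of 1 gave 885 and 803, and at least 10 counts gave 1101 higher. With 1 library left out they were 1559 to 1848 and 1351 to 1533. AP-1 regulators called higher, 9, numbered 4 in the test against a log2 FC of 1 and 5 in control 1, 2 and 3 against cisplatin 1 and 3, and 8 to 9 with 1 library left out. AP-1 targets, 12, numbered 5 with at least 10 counts. That filter left 34 members and 7485 genes to test. The members lost under it, Creb3l3, Fosb, Klf8, Nfe2 and Nr4a2, were not tested. Nor were the AP-1 targets Mmp10, Areg and Timp1. NRF2 targets, 11, numbered 6 in the test against a log2 FC of 1.

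Labels give numbers 1 and 3 to both groups, but nothing says that same-numbered kidneys are paired. Their deviations correlated at 0.22 and 0.23, against 0.13 to 0.33 for differently numbered pairs of control 1, 2 and 3 with cisplatin 1 and 3. With the replicate number as a block, only numbers 1 and 3 occur in both groups. The treatment effect of that fit therefore rests on control 1 and 3 and cisplatin 1 and 3 alone. Those controls had Y-linked counts and those cisplatin libraries almost none, so treatment and this difference cannot be told apart there. In that fit 24 members were called higher and 1 lower, 21 of the 24 shared. Jun, Jund and Klf16 were lost and Batf, Batf3 and Klf7 gained.

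The sign reversed for some members that did not pass the test. Under total-count scaling Atf6b was at 0.33 and Atf7 at 0.48. Atf7 was at 0.23 with the replicate block, 0.038 with the covariate, 0.11 in control 1, 2 and 3 against cisplatin 1 and 3, and -0.33 to 0.047 with 1 library left out. Egr3 was at -0.42 with the block, -0.25 in control 1, 2 and 3 against cisplatin 1 and 3, -0.035 without cisplatin 1 and 3, and -0.31 to 0.71 with 1 library left out. Without cisplatin 1 and 3 Batf2 was at -0.36, Creb1 at -0.19 and Klf7 at -0.71. The cause was not tested. Depth limits Egr4, Klf17 and the control values of Creb3l3 and Nfe2.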
